A study of Mus musculus with 18 samples.

Results

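The ectodysplasin pathway was followed through 6 genes in the dental epithelium of mouse molars: the ligand gene Eda, the receptor genes Edar, Eda2r and Tnfrsf19, and the adaptor genes Edaradd and Traf6. They were taken by gene symbol and are 6 of the 33665 symbols found in any of the deposited tables. All 6 are in the tables of embryonic day 17 (E17) and postnatal day 5 (P5). Only Edar could be followed at postnatal day 0 (P0), where the values used cover 4841 symbols on chromosomes 1, 10 and part of 11, and the other 5 members were not analysed here at that stage. The genotypes compared at each stage were 2: wild type (WT) and a double knockout (DKO) written Hmgn1-/-; Hmgn2-/- in the labels, named for the genes of a pair of nucleosome-binding proteins. Each of the 6 groups held 3 libraries of total RNA from epithelium freed of mesenchyme with dispase, 18 libraries in all. The labels give no strain, sex or allele structure, and do not say whether a library came from 1 animal or a pool, so each p-value speaks only to the spread among these libraries, and that spread may be technical.

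Ectodysplasin is a membrane-bound ligand of the TNF family that is released by cleavage and signals from one ectodermal cell to another. Binding of its longer form, EDA-A1, to the receptor EDAR recruits the death-domain adaptor EDARADD, which passes the signal through TRAF proteins, TRAF6 among them, to the kinases that free the transcription factor NF-kB. A slightly shorter form, EDA-A2, binds a different receptor, EDA2R (also called XEDAR). TNFRSF19 (also called TROY) is a related receptor, structurally close to EDAR, that does not bind ectodysplasin. In the tooth germ Edar is known from the enamel knot and the inner enamel epithelium, and loss of Eda, Edar or Edaradd in mice and people gives missing or misshapen teeth, hair and glands.

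Levels are in RPKM, which divides reads by transcript length and library size so that long and short genes can be compared, and each gene's level is the sum of its transcripts. A log2 fold change sets the double knockout over wild type on log2(RPKM + 1), is followed by its standard error, and was tested with limma, whose p was adjusted by Benjamini-Hochberg over every gene tested at the stage. A gene was tested at a stage where at least 3 of its 6 libraries reached 1 RPKM, the filter referred to from here on. Many genes shifted together between genotypes. The median log2 fold change over all tested genes came to 0.25 (E17), -0.05 (P0) and -0.25 (P5), against -0.00, -0.04 and -0.06 once libraries had been brought to a common upper quartile. "Rose" and "fell" are therefore used only for genes with an adjusted p under 0.05 and 1 direction on both scales, and "scaled" introduces the value on the second. By that rule 6.61% of 13728 tested genes rose and 3.07% fell at E17, 16.7% of 2062 rose and 22.8% fell at P0, and 7.35% of 11423 rose and 30.8% fell at P5. On the deposited scale alone, 56.3% passed upward and 3.3% downward at E17, 16.7% and 23.2% at P0, and 7.36% and 58.2% at P5. On the scaled values alone, 6.61% and 8.03% did so at E17, 21.5% and 25.8% at P0, and 19.4% and 30.8% at P5.

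Deposited alignment totals ran from 65953495 to 99967427 per E17 library, from 74845352 to 108920337 per P0 library and from 39209676 to 72660832 per P5 library. The targeted gene Hmgn2 stood at 320.03 to 354 RPKM in wild type and 0.839 to 0.975 in the double knockout at E17, and at 166 to 183 against 5.44 to 10.4 at P5. Hmgn1 was lowered less, from 123 to 133 down to 86.2 to 92.9 RPKM at E17, and from 179 to 189.6 down to 69.8 to 72.6 at P5. Neither gene was analysed here at P0. The 13 epithelial marker genes (keratins, E-cadherin, Trp63 and others) were detected at E17 and P5, and so were all 12 mesenchyme markers, and the mesenchyme gene Col1a1 stood at 1975 ± 135 RPKM in wild type at E17.

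Edar changed with genotype at all 3 stages, upward at E17, downward at P0 and upward at P5. EDAR is the receptor through which EDA-A1 acts, and its gene lies on chromosome 10 (chr10:58600789-58675654 of mm10, minus strand), with no other annotated gene overlapping it. The 250 bases just before its start site in RefSeq (chr10:58675697-58675946 of GRCm38.p6, minus strand) are shown because Edar is the only member followed through every stage, beside those of Traf6 (chr2:101678170-101678419, plus strand), the other member that rose at P5. Capitals mark matches on either strand to CTTTGA, the core read by the Wnt effectors TCF and LEF, and to a loose form of the NF-kB site: GGG, any 5 bases, then CC.
Edar: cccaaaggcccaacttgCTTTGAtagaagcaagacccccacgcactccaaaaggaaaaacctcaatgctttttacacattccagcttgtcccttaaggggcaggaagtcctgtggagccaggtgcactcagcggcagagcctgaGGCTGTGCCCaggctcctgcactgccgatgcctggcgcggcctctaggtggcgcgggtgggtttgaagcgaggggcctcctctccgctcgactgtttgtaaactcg
Traf6: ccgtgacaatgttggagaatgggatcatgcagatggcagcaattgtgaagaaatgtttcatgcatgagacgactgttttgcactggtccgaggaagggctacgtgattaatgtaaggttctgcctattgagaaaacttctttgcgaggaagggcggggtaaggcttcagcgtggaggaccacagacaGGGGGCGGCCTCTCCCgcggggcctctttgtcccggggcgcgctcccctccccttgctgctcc
The Edar window held 1 match of each motif, from -233 to -228 and from -106 to -97 relative to the start site. The Traf6 window held no CTTTGA and 2 overlapping matches of the second motif, from -63 to -54 and from -57 to -48. Of 32851 RefSeq windows of this length, 13.8% held CTTTGA and 45.8% held the NF-kB form, so both motifs are common, and a match is a run of letters, not a shown binding site.

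At E17, Edar stood at 2.33, 2.17 and 2.76 RPKM in wild-type libraries 1, 2 and 3 and at 3.84, 4.83 and 4.10 in the double knockout. Every double knockout library was above every wild-type library, as was the case for 60.9% of genes tested at this stage. The mean rose from 2.42 ± 0.309 to 4.26 ± 0.514 RPKM (SD, n = 3 each), a log2 fold change of 0.62 ± 0.10, limma adjusted p = 0.00201, scaled 0.40, adjusted p = 0.0288. The call after scaling held without wild-type replicate 3 but not without any other single library (adjusted p = 0.0524 to 0.080), while the scaled log2 fold change stayed between 0.34 and 0.48.

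At P0 the order was the reverse. The wild-type libraries held Edar at 3.56, 2.46 and 3.19 RPKM and the double knockout libraries at 0.551, 0.608 and 0.701, with no overlap, and 29.3% of tested genes were placed in that way. Its mean was 3.07 ± 0.561 RPKM in wild type and 0.620 ± 0.0758 in the double knockout, 4.95-fold lower, with a log2 fold change of -1.32 ± 0.12 (limma adjusted p = 5.04e-06, scaled -1.31, adjusted p = 3.08e-05). On that scale 0.339% of the tested P0 genes had a lower value. The pseudocount of 1 compresses this difference, and with 0.1 the log2 fold change was -2.13. Edar passed the filter at P0 through its wild-type libraries alone, and with no filter it still fell (adjusted p = 0.00336). The steps of the deposited values put about 353 to 431 reads on its single transcript of 3637 bases in wild type and 81 to 91 in the double knockout. With any 1 library left out, the log2 fold change ran from -1.43 to -1.23, and the adjusted p stayed under 0.05 in both scalings.

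At P5, Edar stood at 1.02, 1.44 and 1.15 RPKM in wild type against 2.12, 2.16 and 2.35 in the double knockout, again with no overlap and with the double knockout above, an arrangement seen in 8.66% of tested genes. The mean rose from 1.20 ± 0.214 to 2.21 ± 0.124 RPKM (log2 fold change 0.55 ± 0.09, limma adjusted p = 0.000457, scaled 0.69). The call held in both scalings with any 1 library left out. The effect at P0 was lower than at E17 by 1.94 ± 0.15 on the log2 scale (adjusted p = 3.56e-09, scaled -1.70), and the effect at P5 was above that at P0 by 1.87 ± 0.15 (adjusted p = 1.60e-09, scaled 1.99). A lower effect at P0 than at E17 passed in 48.9% of 2011 genes compared and in 23.9% after scaling, and a higher effect at P5 than at P0 in 9.9% and 23.4% of 1758. The effects at E17 and P5 differed by -0.07 (95% interval -0.35 to 0.21, adjusted p = 0.623), and by 0.29 after scaling (0.01 to 0.56, adjusted p = 0.0818).

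**Figure D1:**
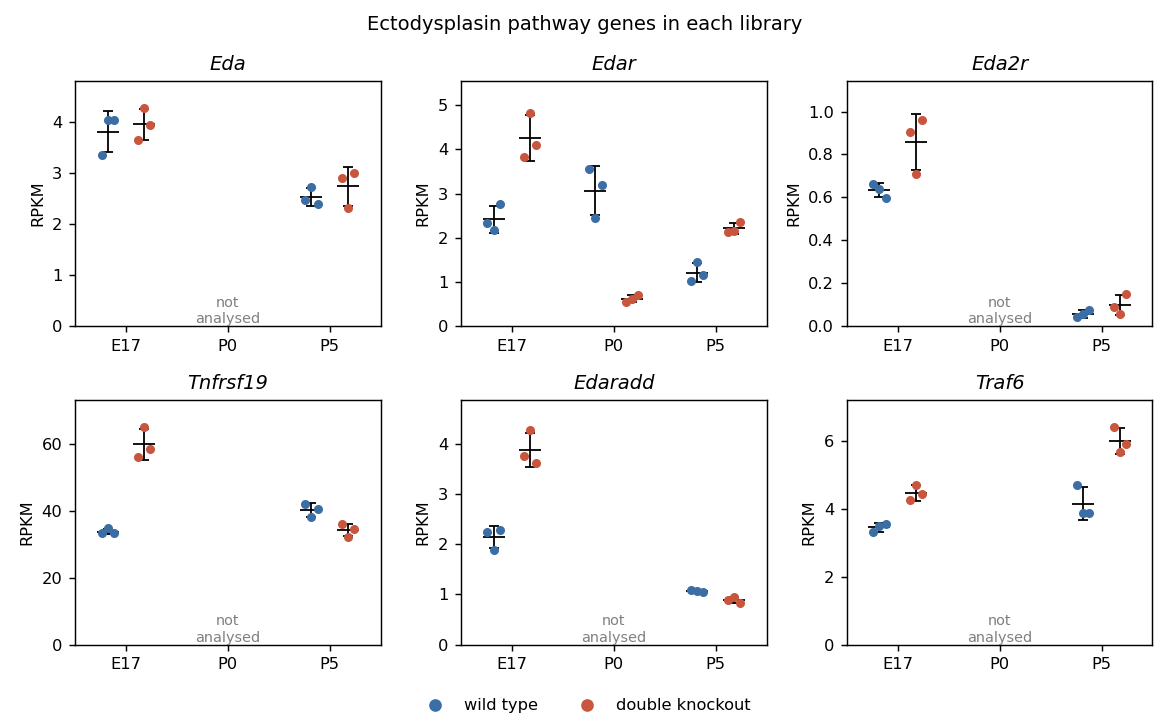
RPKM of each pathway gene (vertical axes, separate scales) at E17, P0 and P5 (horizontal axes) in wild type (blue) and double knockout (red). Points are libraries, and the bars give mean ± SD (n = 3). The Edar panel shows the double knockout above wild type at E17 and P5 and, at 0.551 to 0.701 RPKM, below it at P0.

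Markers of other cells differed between genotypes too, and the mesenchyme sum moved in the opposite direction to Edar at each stage. The summed RPKM of the mesenchyme markers, all of them above 0, was 4444 to 4847 in wild type and 2789 to 2979 in the double knockout at E17. At P0, where 5 of the 12 could be read, it was 715 to 851 against 2153 to 3015, and at P5 it was 2093 to 2286 against 902 to 1289.9. The list did not move as 1 at E17 and P0 (its genes are named here after their values were seen). At E17 the lower sum was mostly that of the collagen genes Col1a1, from 1975 ± 135 to 896 ± 119 RPKM, and Col1a2, from 1229 ± 22.2 to 643 ± 56.8. Of the 12, 4 fell and 1, Thy1, rose (12.8 ± 3.14 to 24.4 ± 1.87), beside 3.07% and 6.61% of all tested genes. The list median log2 fold change was -0.07, scaled -0.36. At P0 Col1a1, from 511 ± 41.5 to 2263 ± 488 RPKM, and Dcn, from 68.5 ± 4.43 to 208.04 ± 12.6, rose, Col3a1 and Prrx1 fell (log2 fold changes -1.09 and -0.96), and Lum did not pass. Over all tested P0 genes 16.7% rose and 22.8% fell. At P5 7 of the 12 fell and 0 rose, beside 30.8% and 7.35% of all tested genes, with a median of -0.74, scaled -0.53. The epithelial sum was 2870.2 to 3351 against 3488 to 3689.5 RPKM at E17 and 5259 to 6312 against 5145 to 5342 at P5. At P0 only Perp and Pkp1 of that list could be read, and their sum was higher in the double knockout, 463 to 488 against 306 to 350.5 RPKM. Most of that sum was Perp, which rose from 275 ± 20.0 to 412 ± 14.1 RPKM. Pkp1 overlapped between genotypes and did not pass (limma adjusted p = 0.145). The rest of the epithelial list was not analysed here at P0. Cornifying epithelium moved at E17 too: 6 of 10 tested markers rose and 0 fell, beside 6.61% and 3.07% of all tested genes. The list median log2 fold change was 1.67, scaled 1.39. Of the 6, Rptn passed the filter only through its double knockout libraries, at 3.43 to 14.1 RPKM against 0.204 to 0.501 in wild type. Among these markers Lor went from 8.32 ± 2.01 to 97.6 ± 52.1 RPKM and Krt6b from 7.14 ± 1.81 to 32.9 ± 11.1. The abundant Krt13, at 1439 ± 278 and 1864 ± 593, did not pass. At P5 the marker sums of the double knockout were 0.418 times wild type for bone and dentin, 0.428 for nerve, 0.564 for red cells, 0.702 for immune cells and 0.725 for endothelium. The part of other cell types in the results for the members and for the pathway lists was not tested, and in bulk samples fewer cells of a type and less RNA per cell cannot be told apart.

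**Figure D2:**
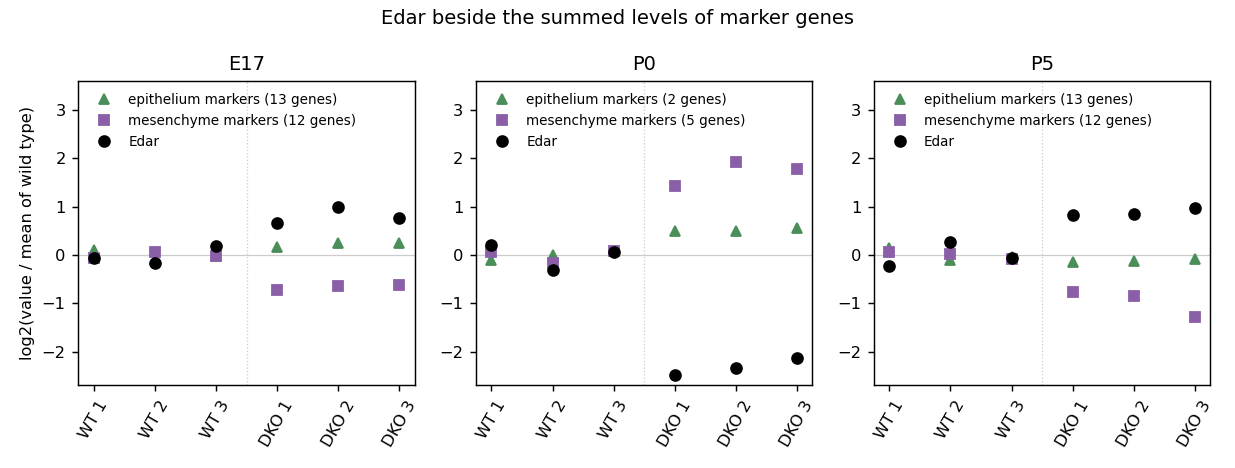
Edar (black), the sum of epithelial markers (green) and the sum of mesenchyme markers (purple) in each library (horizontal axis), as the log2 ratio to the wild-type mean of the stage (vertical axis). At P0 the double knockout libraries sit at -2.48 to -2.13 for Edar, and both marker sums lie above their wild-type libraries. At E17 and P5 Edar lies above and the mesenchyme sum below wild type.

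Edaradd, the adaptor that binds the death domain of EDAR (chr13:12472632-12520438, minus strand), rose with Edar at E17. The wild-type libraries read 2.24, 1.89 and 2.28 RPKM and the double knockout libraries 3.75, 4.26 and 3.62, with no overlap. At E17 60.9% of tested genes were placed in that way, with the double knockout above. The log2 fold change was 0.64 ± 0.09 (limma adjusted p = 0.00131, scaled 0.42, adjusted p = 0.0168), and the scaled call was lost without double knockout replicate 2 (adjusted p = 0.0501). At P5 wild type read 1.10, 1.06 and 1.05 RPKM and the double knockout 0.886, 0.938 and 0.829. All double knockout libraries were lower there, but the difference did not pass (log2 fold change -0.13, 95% interval -0.31 to 0.04, adjusted p = 0.156, scaled -0.02). Of the tested genes, 61.8% had all 3 double knockout libraries below all 3 of wild type at P5. Edaradd passed the filter at P5 only through its wild-type libraries. Its genotype effect was lower at P5 than at E17 by 0.77 ± 0.12 (adjusted p = 1.17e-05, scaled -0.45), and an effect lower at P5 passed in 78.1% of 11049 genes compared, or 27.5% after scaling.

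Traf6, a ubiquitin ligase that many TNF-family and interleukin receptors share (chr2:101678429-101701669, plus strand), rose at P5. The wild-type libraries stood at 4.71, 3.88 and 3.90 RPKM and the double knockout libraries at 6.42, 5.69 and 5.92. Every double knockout library was above every wild-type library, as in 8.66% of genes tested at P5. The log2 fold change was 0.44 ± 0.08 (limma adjusted p = 0.00102, scaled 0.63, adjusted p = 0.000151). At E17 the double knockout libraries also lay above all wild-type libraries, as in 60.9% of tested genes. They read 4.28, 4.73 and 4.43 RPKM against 3.32, 3.50 and 3.55. That difference passed before scaling (0.30 ± 0.07, adjusted p = 0.00705), where 56.3% of all genes passed upward, but not after it (0.07, 95% interval -0.08 to 0.21, adjusted p = 0.495). The effects at the 2 stages differed by 0.15 before scaling (adjusted p = 0.217) and by 0.57 after it (adjusted p = 0.000138), where 16.7% of genes passed upward.

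Tnfrsf19, the TROY receptor gene (chr14:60963875-61046490, minus strand), was the most abundant member at E17 and P5 in both genotypes. At E17 its wild-type libraries read 33.4, 34.8 and 33.3 RPKM and its double knockout libraries 56.2, 65.0 and 58.5. The groups did not overlap, and 60.9% of tested genes were placed in that way, with the double knockout above. It rose by a log2 fold change of 0.81 ± 0.07 (limma adjusted p = 0.000258, scaled 0.52, adjusted p = 0.00106), and the call held in both scalings with any 1 library left out. At P5 the order was turned, with wild-type libraries at 42.1, 38.1 and 40.7 RPKM and double knockout libraries at 36.0, 32.3 and 34.5, as in 61.8% of tested genes. That fall passed before scaling (-0.23 ± 0.06, adjusted p = 0.00918), as it did for 58.2% of genes, but not after it (-0.01, 95% interval -0.13 to 0.11). The effect at P5 was lower than at E17 by 1.03 ± 0.10 (adjusted p = 8.02e-08, scaled -0.53), and a lower effect at P5 passed in 78.1% of genes compared, or 27.5% after scaling. A long non-coding RNA gene on the opposite strand, Gm41168, overlaps the start of Tnfrsf19, and whether the authors' counting used strand is not given in the sources used here.

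Eda, the ligand gene of 425.2 kb on the X chromosome (chrX:99975606-100400762, plus strand), showed no change that passed in both scalings. At E17 the wild-type libraries held 3.35, 4.04 and 4.03 RPKM of Eda and the double knockout libraries 3.65, 4.27 and 3.94. The groups overlapped, with a log2 fold change of 0.05 (95% interval -0.15 to 0.24, limma adjusted p = 0.662, scaled -0.19). At P5 the values were 2.47, 2.72 and 2.39 RPKM for wild type and 2.90, 2.31 and 2.999 for the double knockout, again overlapping. The log2 fold change was 0.08 (95% interval -0.12 to 0.28, adjusted p = 0.454), and after scaling 0.24 with an adjusted p of 0.0457. Of the 4 annotated genes inside Eda, 3 are processed pseudogenes and Mir676 is a microRNA gene, all on its own strand.

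Eda2r, the receptor of EDA-A2 (chrX:97333840-97377216, minus strand), was below the filter of 1 RPKM in 3 libraries and was not in the tests. At E17 wild type read 0.663, 0.638 and 0.598 RPKM and the double knockout 0.904, 0.709 and 0.963. The double knockout libraries lay above all wild-type libraries, as they did for 60.9% of tested genes, and with no filter the log2 fold change was 0.18 with an adjusted p of 0.132. At P5 it was close to the floor, at 0.0407, 0.0545 and 0.0741 RPKM against 0.0893, 0.0550 and 0.149, with overlap. The highest of these, double knockout replicate 3, was also the library in which 9 skeletal muscle markers summed to 19.1 RPKM, against 1.15 to 1.73 in the other 5. Double knockout replicate 1, at 0.0893 RPKM of Eda2r, had a muscle sum of 1.73. Any link between the muscle sum and Eda2r was not tested.

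**Figure D3:**
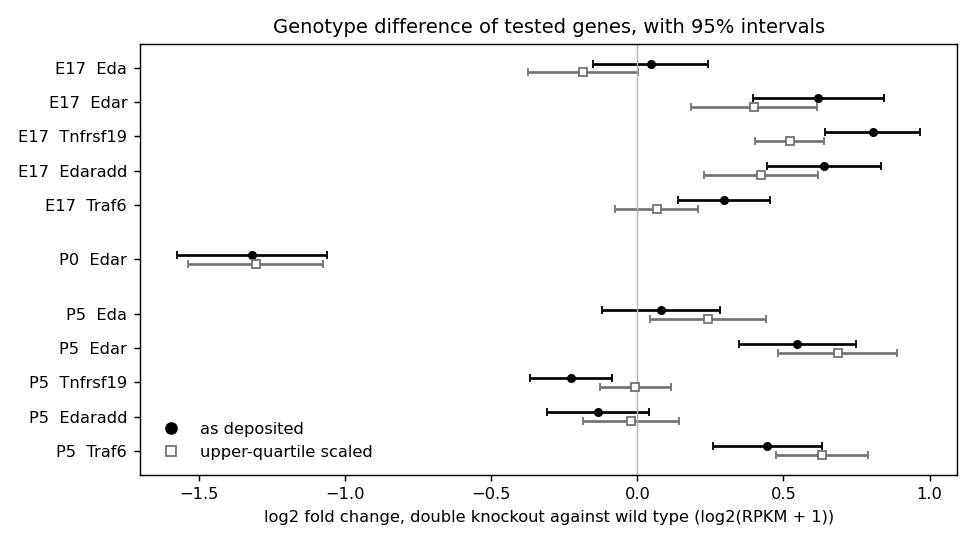
Log2 fold change (horizontal axis) of each tested pathway gene, by stage (vertical axis), as deposited (filled circles) and after upper-quartile scaling (open squares), with 95% intervals from limma. Edar at P0 is at -1.32, far from the other values, which lie between -0.23 and 0.81.

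In all, 5 of the 6 members could be tested at E17 and P5 and 1 at P0. At E17 3 of the 5 rose (Edar, Edaradd and Tnfrsf19) and 0 fell, beside 6.61% and 3.07% of all tested genes. At P0 Edar fell, as did 22.8% of tested genes. At P5 2 of the 5 rose (Edar and Traf6) and 0 fell, beside 7.35% and 30.8%. Edar was the only member that changed in both scalings at every stage in which it was read, and the P0 comparison of the others was not made.

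The levels of the members spanned a wide range. In wild type at E17 the order of mean RPKM was Tnfrsf19 at 33.8, Eda at 3.81, Traf6 at 3.46, Edar at 2.42, Edaradd at 2.13 and Eda2r at 0.633. The libraries of Eda and Traf6 overlapped, as did those of Edar and Edaradd. In wild type at P5 the order was Tnfrsf19 at 40.3, Traf6 at 4.16, Eda at 2.52, Edar at 1.20, Edaradd at 1.07 and Eda2r at 0.0564, with overlap of Edar and Edaradd. The double knockout had the same order at P5, with Eda at 2.74, Edar at 2.21 and Edaradd at 0.885, and there the libraries of Eda and Edar overlapped while those of Edar and Edaradd did not. At E17 it put Traf6 at 4.48 and Edar at 4.26 above Eda at 3.95 and Edaradd at 3.88, and the libraries of neighbours overlapped. Stages were deposited in separate tables with different transcript models, so levels of different stages are set side by side without a test.

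The sums can hide changes between transcripts, which were read from the deposited values without a test. Eda had 12 transcripts at E17. The leading one, Eda-206, codes for 391 residues, the length of EDA-A1, and read 1.73, 2.42 and 2.77 RPKM in the wild-type libraries against 1.93, 2.22 and 1.40 in those of the double knockout. Eda-205, which codes for 386 residues, stood at 0.593, 0.870 and 0.593 RPKM against 1.19, 1.19 and 1.34. The groups overlapped for the first and did not for the second, and the share of Eda-205 in the Eda sum was 14.7 to 21.5% in wild type and 27.9 to 34.1% in the double knockout. At E17 60.9% of tested genes had every double knockout library above every wild-type library. That share is over genes, and the share over transcripts is not given here. At P5 the shares of the Eda transcripts varied widely between libraries of 1 genotype, and the leading one took 26.9 to 62.1% in wild type and 21.2 to 57.4% in the double knockout.

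Tnfrsf19 was carried at E17 by 2 transcripts that both code for 416 residues. The leading one went from 22.7 ± 0.134 to 36.8 ± 3.99 RPKM and the other from 9.78 ± 1.17 to 19.6 ± 0.614. Both were higher in every double knockout library, as were 60.9% of genes tested at E17. Traf6 differed at P5 between its 2 RefSeq transcripts. The leading one read 3.72, 2.29 and 2.83 RPKM in the wild-type libraries against 5.81, 5.56 and 5.17 in those of the double knockout, and the other at 0.994, 1.59 and 1.07 against 0.610, 0.134 and 0.753. The first was above wild type and the second below it in every double knockout library, and the share of the first was 59.0 to 78.9% in wild type and 87.3 to 97.7% in the double knockout. Of genes tested at P5, 8.66% had all double knockout libraries above those of wild type and 61.8% had them all below. How reads common to transcripts of 1 gene were divided is not given in the sources used here.

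**Figure D4:**
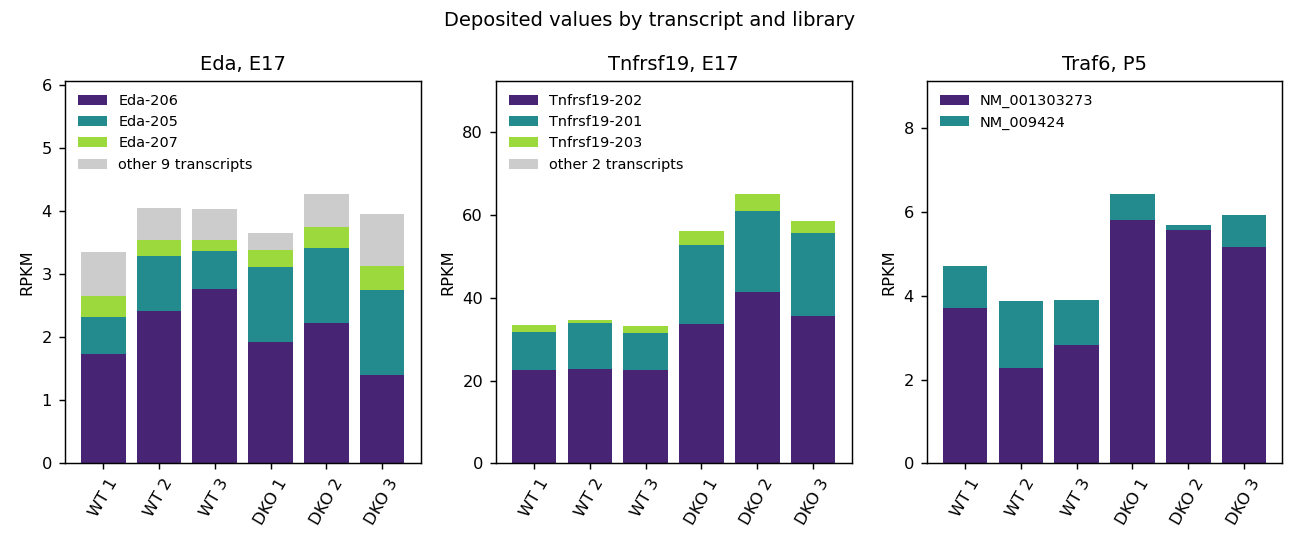
RPKM per library (vertical axes) stacked by deposited transcript, for Eda and Tnfrsf19 at E17 and Traf6 at P5, with wild-type and double knockout libraries 1 to 3 along the horizontal axes. Bars of Eda are alike in height while the share of Eda-205 differs, both main Tnfrsf19 transcripts are taller in the double knockout, and the smaller Traf6 transcript is shorter there.

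The machinery that carries the signal to NF-kB was read through 28 genes: Furin, which cleaves ectodysplasin free, the TAB and TRAF proteins, the kinases, and the NF-kB subunits with their inhibitors. All 28 were tested at E17, where 1 rose and 1 fell (17 and 1 before scaling), beside 6.61% and 3.07% of all tested genes (56.3% and 3.3% before scaling), and the list median was 0.24, scaled -0.00, beside 0.25 and -0.00 for all genes. The 1 that rose was Nfkbia, which encodes the inhibitor IkB-alpha and is itself switched on by NF-kB. It went from 28.2 ± 0.957 to 40.7 ± 2.73 RPKM (0.51, limma adjusted p = 0.00137, scaled 0.23), but after scaling it no longer passed when replicate 3 of wild type (adjusted p = 0.0563) or of the double knockout (0.0687) was left out. The NF-kB subunit genes Nfkb1 and Rela passed before scaling (0.29 and 0.26) but not after it (0.02 and -0.02, adjusted p = 0.881 and 0.865). Ikbke, a kinase related to the IkB kinases, was the 1 that fell, from 2.71 ± 0.0870 to 1.99 ± 0.0609 RPKM (-0.31, scaled -0.51).

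Ikbke took the opposite course to Edar. At P0 it rose from 1.13 ± 0.0504 to 2.95 ± 0.110 RPKM (0.89, limma adjusted p = 1.67e-05, scaled 0.91), and at P5 it fell from 2.07 ± 0.372 to 1.01 ± 0.130 (-0.61, adjusted p = 0.000476, scaled -0.47). Among the 6 list genes tested at P0, 1 rose, Ikbke, and 1 fell, beside 16.7% and 22.8% of all tested genes. The 1 that fell was Tnip1, which encodes a partner of the NF-kB inhibitor A20 (-0.29, scaled -0.27). That call was lost before scaling without wild-type replicate 1 or 3 or double knockout replicate 2 or 3 (adjusted p = 0.0516 to 0.0927).

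At P5, 3 of 24 tested machinery genes rose and 6 fell (3 and 14 before scaling, 8 and 6 after it), beside 7.35% and 30.8% of all tested genes (7.36% and 58.2% before scaling), so falls were about as frequent as over all genes. Among the 3 that rose, Rel passed the filter only through its double knockout libraries, at 1.06 to 1.43 RPKM against 0.814 to 0.899 in wild type. The list median was -0.24, scaled -0.08, beside -0.25 and -0.06 for all genes. Nfkb2, the p100 subunit gene of the non-canonical branch, fell from 4.02 ± 0.250 to 1.93 ± 0.225 RPKM (-0.78, limma adjusted p = 3.80e-05, scaled -0.61). Rela fell from 15.2 ± 0.242 to 10.2 ± 0.554 RPKM (-0.53, adjusted p = 6.48e-05, scaled -0.32), and the kinase gene Chuk from 7.27 ± 0.960 to 4.93 ± 0.139 (-0.47, scaled -0.28). Nfkbiz, an atypical IkB that acts in the nucleus, rose from 1.31 ± 0.177 to 2.71 ± 0.170 RPKM (0.69, adjusted p = 8.58e-05, scaled 0.83). The inhibitor gene Nfkbib fell (-0.39, scaled -0.18, adjusted p = 0.0459). The scaled call of Nfkbib was lost without any single library but wild-type replicate 1 (adjusted p = 0.0842 to 0.147), and that of Chuk without wild-type replicate 1 or 3 or double knockout replicate 1 (0.0572 to 0.0749). Nfkbia did not pass after scaling (-0.21, scaled -0.00, adjusted p = 0.979), nor did Nfkb1 (-0.31, scaled -0.10, adjusted p = 0.173).

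Genes described as targets of ectodysplasin or NF-kB in ectodermal organs made up the other list of 24. Like the members and the machinery list, it was chosen with earlier results of these data known. Its counts beside those of all genes are therefore a description and not a test. At E17, 11 of 21 tested rose and 0 fell in both scalings (13 and 0 before it, 11 and 1 after it), beside 6.61% and 3.07% of all tested genes, with a median log2 fold change of 0.61, scaled 0.38, beside 0.25 and -0.00 for all genes. Dkk4, which encodes a Wnt inhibitor known as an early target of ectodysplasin in skin, rose from 1.29 ± 0.421 to 4.13 ± 0.607 RPKM (1.18, limma adjusted p = 0.000963, scaled 0.98). The BMP and Wnt antagonist Sostdc1 rose from 66.6 ± 10.1 to 150.4 ± 16.4 RPKM (1.17, adjusted p = 0.000390, scaled 0.88), and the cell cycle gene Ccnd1 from 21.2 ± 2.03 to 44.9 ± 1.98 (1.05, adjusted p = 0.000137, scaled 0.77). Shh (1.73, scaled 1.45), the forkhead gene Foxi3 (1.10, scaled 0.83), the BMP pseudoreceptor gene Bambi (0.78, scaled 0.51) and Wnt10a (0.73, scaled 0.47) rose as well. Fgf20, a growth factor gene under Edar control in skin and teeth, stood at 1.05 ± 0.0509 and 1.03 ± 0.183 RPKM (-0.02, adjusted p = 0.876, scaled -0.17). Ltb, the lymphotoxin-beta gene, stood at 3.32 ± 0.376 and 4.14 ± 0.895 RPKM (0.24, adjusted p = 0.118, scaled 0.01).

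At P0 and P5 the target list moved in both directions. At P0, 3 of its genes were tested, of which 1 rose and 2 fell, beside 16.7% and 22.8% of all tested genes. Wnt10a rose from 16.2 ± 2.23 to 45.4 ± 1.83 RPKM (1.44, limma adjusted p = 3.15e-07, scaled 1.46). The matricellular gene Ccn2 fell from 28.6 ± 4.06 to 10.1 ± 1.08 RPKM (-1.42, adjusted p = 1.53e-06, scaled -1.40), and Prdm1, a transcriptional repressor, from 3.28 ± 0.510 to 1.499 ± 0.397 (-0.78, adjusted p = 0.000655, scaled -0.77). At P5, 1 of 14 tested rose and 3 fell (1 and 7 before scaling), beside 7.35% and 30.8% of all tested genes (7.36% and 58.2% before scaling), so the falls in the list were no more frequent than over all genes. Its median was -0.31, scaled -0.10, beside -0.25 and -0.06. Ccnd1 fell from 22.5 ± 1.71 to 8.26 ± 0.642 RPKM (-1.35, adjusted p = 2.56e-06, scaled -1.14), Shh from 113 ± 25.9 to 46.1 ± 1.75 (-1.25, adjusted p = 3.19e-05, scaled -1.03) and Sostdc1 from 91.5 ± 3.81 to 65.5 ± 4.50 (-0.48, scaled -0.25). The 1 that rose was the activin antagonist gene Fst (0.42, adjusted p = 0.0282, scaled 0.59), whose call was lost without wild-type replicate 1 or 3 or double knockout replicate 1 or 3 (adjusted p = 0.0533 to 0.111). Wnt10a did not pass after scaling at P5 (-0.47, scaled -0.25, adjusted p = 0.0535). Dkk4 and Fgf20 were not analysed here at P5, and Ltb was below the filter there.

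**Figure D5:**
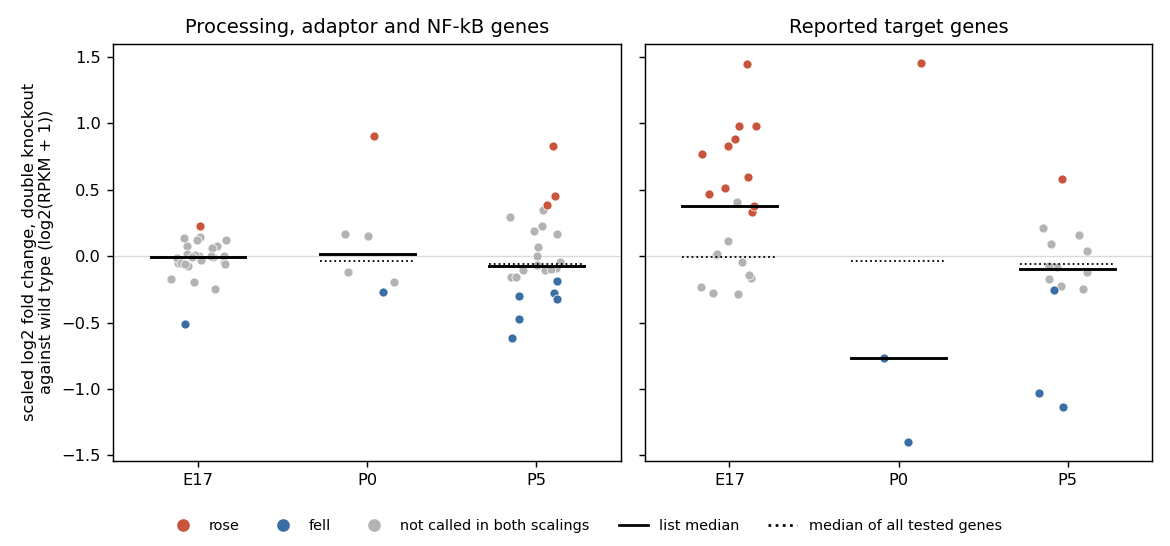
Scaled log2 fold changes (vertical axis) of the tested machinery genes (left) and target genes (right) at each stage (horizontal axis). Points are genes, coloured red where they rose, blue where they fell and grey where they passed in neither or only 1 scaling, with the list median as a solid and the median of all tested genes as a dotted line. The target median at E17 lies at 0.38 against -0.00 for all genes, and the machinery medians lie close to those of all genes.

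Edar was 1 of 8 genes that rose at E17, fell at P0 and rose at P5 in both scalings, 0.461% of the 1735 genes tested at all stages, and 6 genes (0.346%), Ikbke among them, took the opposite course. The genes whose levels followed Edar most closely within stages, by the mean of the 3 Pearson correlations over 6 libraries each, were Msi2 (0.961), Socs2 (0.950), Kcnmb4os2 (0.947), Dyrk2 (0.944) and Fzd5 (0.942). Msi2 encodes an RNA-binding protein, Socs2 an inhibitor of cytokine signals, Dyrk2 a kinase and Fzd5 a Wnt receptor. Both genotypes enter each correlation, so a gene that differs between genotypes in the same directions scores high. After scaling, Socs2 was the closest (mean correlation 0.959), Fzd5 ranked 5, Kcnmb4os2 8, Dyrk2 11 and Msi2 49. Kcnmb4os2, a non-coding gene named for lying opposite Kcnmb4, went from a wild-type mean of 2.02 to a double knockout mean of 4.47 RPKM at E17, from 4.11 to 0.908 RPKM at P0, and from 1.55 to 3.25 RPKM at P5. Its reads and those of its partner cannot be told apart where strand was not used.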

How the data were processed

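RNA was measured in 18 libraries of molar dental epithelium. Per the submitters' processing notes, Partek and mouse build mm10 were used by the authors. The aligner, with its annotation and strand setting, is not given in the sources used here. Library names, per the file headers, are those of sorted alignments with marked duplicates, and P5 transcripts carry RefSeq names while E17 and P0 do not, so levels were tested within stages only. The deposited values were taken as RPKM per transcript. No source names this unit, which was read from the values: at E17 and P0, 88.1% to 91.5% of low values of single-transcript genes were whole multiples of what 1 read is worth, within 0.1.

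RPKM were summed per symbol, and genes with at least 1 RPKM in at least 3 of 6 libraries were tested with limma 3.58.1 in R 4.3.3 (trended empirical Bayes, two-sided, pseudocount of 1, 3 libraries against 3, no block), after tests on simulated data. The difference of 2 stages' effects was divided by its combined standard error, with degrees of freedom after Satterthwaite. Gene positions come from GENCODE M21 (mm10) and promoters from RefSeq (GRCm38.p6). Members, lists and tests were chosen with earlier results of these data known. Named were all members, up to 6 called genes of each list and stage with the smallest p, Nfkbia, Nfkb1, Rela, Fgf20, Dkk4, Wnt10a and Ltb, and the 5 genes most like Edar. Rel, named for how it passed the filter, is outside this rule. Further marker sums, as double knockout over wild type at E17, were 0.640 for bone and dentin, 1.54 for cornifying epithelium (a sum dominated by Krt13 and Krt4), 0.630 for muscle, 0.995 for endothelium, 1.19 for immune cells, 2.34 for red cells and 2.61 for nerve.

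Alternatives were upper-quartile and median-of-ratios scaling, no filter, a pseudocount of 0.1, no trend, a minimum absolute log2 fold change of 1, a replicate block, and each library left out.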

Additional observations from a re-analysis of the deposited data

Results flagged for a closer look

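These members were singled out because the test of the difference between stages passed on both scales. The genotype effect on Edar was lower at P0 than at E17, by a log2 difference of -1.94, and higher at P5 than at P0, by 1.87. At P5 compared with E17 the log2 difference was -0.77 for Edaradd and -1.03 for Tnfrsf19. Passing this test was common over all genes compared. An effect lower at P0 than at E17 passed in 48.9% (23.9% after scaling). A higher effect at P5 than at P0 passed in 9.9% (23.4%), and a lower effect at P5 than at E17 in 78.1% (27.5%). Edar at P0 and Edaradd at P5 passed the filter only through their wild-type libraries.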

How the results depend on the processing

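Of 840 values of single genes recomputed under the alternatives, 694 kept their direction and side of the threshold, 109 lost the call, 5 gained one and 32 changed sign. Counts of calls on the deposited scale were 4 members, 18 transduction genes and 13 targets at E17, 2 transduction genes at P0, and 3, 17 and 8 at P5. Over all tested genes 56.3% passed upward and 3.3% downward on that scale at E17, 16.7% and 23.2% at P0, and 7.36% and 58.2% at P5. With upper-quartile scaling these shares were 6.61% and 8.03%, 21.5% and 25.8%, and 19.4% and 30.8%. Shares over all genes are not given here for the other alternatives, the replicate block among them. For the transduction list at E17 the count was 2 with upper-quartile and 2 with median-of-ratios scaling, 8 with no filter and 8 to 23 with a library left out, or 1 to 2 when scaled as well. At P0 it was 4 with median-of-ratios scaling and 1 to 4 with a library left out. Targets at P5 numbered 4 with upper-quartile scaling, 5 with median-of-ratios scaling and 4 to 6 with scaling and a library left out (4, 4, 4, 4 and 5 where they moved). With scaling and a library left out, members at E17 numbered 1 to 3, targets at E17 8 to 13, and transduction genes at P5 9 to 13 (10, 9, 10, 10 and 10 where they moved). A minimum absolute log2 fold change of 1 left 0 members at E17 and P5, 0 transduction genes at each stage, 6 targets at E17 and 2 at P5. At that minimum Edar at P0 passed.

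Replicate numbers did not pair the libraries. Same-numbered libraries correlated in their deviations at -0.02, 0.22 and -0.02 at E17, -0.17, 0.27 and -0.08 at P0 and -0.22, -0.07 and 0.04 at P5, and 2, 2 and 1 of 6 libraries correlated best with their own number. The replicate block with upper-quartile scaling gave 2 members and 2 transduction genes at E17 (adjusted p = 0.0559 for Edar at E17), and 11 transduction genes and 4 targets at P5. Under it Eda at E17 was at -0.19 and Rela at E17 at -0.017.

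Signs changed for the following, and the cause was not tested. Eda at E17 was -0.19 with upper-quartile and -0.18 with median-of-ratios scaling, -0.026 to 0.090 with a library left out, and -0.27, -0.15, -0.14, -0.18, -0.21 and -0.17 with scaling and a library left out. Rela at E17 was -0.017 and -0.014 with the scalings, and -0.046, -0.015, -0.044 and -0.029 with scaling and a library left out. Nfkb1 at E17 was -0.0013 and -0.032, and Ltb at E17 -0.063 and -0.10, with scaling and replicate 2 of wild type or of the double knockout left out. Fgf20 at E17 was -0.082 to 0.049 with a library left out. At P5 median-of-ratios scaling gave 0.0088 for Edaradd, 0.055 for Tnfrsf19 and 0.059 for Nfkbia. With scaling and a library left out there, Edaradd was at 0.0026, Tnfrsf19 at 0.023 and 0.028, and Nfkbia at 0.0068, 0.0011 and 0.021. Scaled differences between the P5 and E17 effects were 0.43 for Eda, 0.29 for Edar and 0.57 for Traf6.

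Each group held 3 libraries, values under 1 RPKM are compressed by the pseudocount, and the P0 table covers part of the genome.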
